A study of Mus musculus with 8 samples.

Results

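The BCL2 family decides whether a cell keeps its mitochondria intact or releases cytochrome c from them and dies. Pro-survival members (BCL2, BCL-XL, MCL1) hold the effectors BAX and BAK in check, and BH3-only members (BIM, BID, BAD, PUMA, NOXA) bind the groove of the pro-survival proteins through a short helix, the BH3 segment, or activate the effectors directly. MCL1 is a short-lived protein that blood stem and progenitor cells are known to need for survival. Transcripts of 10 genes of this family were taken by symbol from the table of all genes: the pro-survival genes Bcl2, Bcl2l1 (BCL-XL) and Mcl1, the effectors Bax and Bak1, and the BH3-only genes Bcl2l11 (BIM), Bid, Bad, Bbc3 (PUMA) and Pmaip1 (NOXA). All 10 were found among the 37980 rows, and 9 of them passed the filter on low values, with Bak1 below it.

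The cells were multipotent progenitors (MPPs) of mouse bone marrow, which form the blood lineages for a limited time. They were sorted as ckit+, Sca1+ and CD135+ cells that lacked lineage markers, CD48 and CD150, and the comparison asks how the NUP98-HOXA10hd fusion (NA) changes their transcripts. NA MPPs came from NA LSL/+; Vav-Cre mice, in which Cre under the Vav promoter of blood cells switches on the fusion of the nucleoporin NUP98 with the HOXA10 homeodomain from the Rosa26 locus. WT MPPs came from age-matched CD45.2 mice, both groups were on C57BL/6, and neither age in weeks nor sex is in the labels. Each group had 4 libraries of 1000 sorted cells with amplified cDNA, named NA1 to NA4 and WT1 to WT4 by their titles. No source says whether the libraries of a group came from separate mice, so p-values measure the spread between these libraries, which may be technical.

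The deposited values are normalised counts, already divided by a size factor per library. The estimated depth was 3877029 to 4916903 reads, with NA4, WT2 and WT3 between 3877029 and 3960810 reads. Hoxa10 was higher in NA MPPs in every library, at 298 to 371 against 130 to 149 normalised counts. Xist was at 869 to 1286 in the WT libraries and at most 2.8 in the NA libraries, while Eif2s3y was at 516 to 666 in NA and at most 0.888 in WT, so sex and genotype cannot be told apart. Kit and Flt3, 2 genes of the sort, lay above 1000 normalised counts in all 8 libraries. The T cell genes Cd3d, Cd3e, Cd3g, Cd8a and Trac were at 0 in all of them, which is 5 of the 7 T and NK cell genes examined, as were Elane, 1 of 9 neutrophil genes, and Pax5 and Igll1, 2 of 7 B cell genes. Other genes of these lists were above 0, and the summed levels are given last. WT4 lay near a weighted sum of WT1 to WT3, with a median absolute log2 deviation of 0.0867 where counting error gives 0.0752, the smallest deviation of all libraries. NA4 lay at 0.129 where it gives 0.0866, the smallest of its group, which does not set it apart from WT1, at 0.132 where it gives 0.0908. The other 5 libraries deviated by 0.156 to 0.236. The calls below are therefore also given without NA4 and WT4.

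The BH3 segment that the family shares, and through which BH3-only proteins bind their partners, is shown first. Each line gives 45 bases of coding sequence, 5′ to 3′ on the gene's strand, from GRCm38 with GENCODE M21 transcripts. Capitals mark the leucine codon of the BH3 segment and, after the next 3 codons, the codon of the small residue and the aspartate codon. All stretches lie inside single coding exons, and 9 of the 10 members are shown. Pmaip1 was left out of this search, so its absence says nothing about its BH3 segment.
Mcl1: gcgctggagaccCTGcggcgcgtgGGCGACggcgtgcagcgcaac
Bcl2: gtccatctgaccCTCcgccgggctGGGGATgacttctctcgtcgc
Bcl2l1: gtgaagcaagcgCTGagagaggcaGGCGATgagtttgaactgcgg
Bax: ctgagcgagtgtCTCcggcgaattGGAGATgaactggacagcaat
Bak1: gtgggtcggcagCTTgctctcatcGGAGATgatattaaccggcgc
Bcl2l11: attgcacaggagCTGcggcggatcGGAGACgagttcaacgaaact
Bid: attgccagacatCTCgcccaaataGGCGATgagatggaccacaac
Bad: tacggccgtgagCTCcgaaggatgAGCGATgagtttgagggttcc
Bbc3: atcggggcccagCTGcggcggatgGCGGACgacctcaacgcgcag
The Mcl1 stretch is at chr3:95659424-95659468 on the plus strand in exon 1 of 3. That of Bcl2 is at chr1:106712569-106712613 on the minus strand in exon 1 of 2, and that of Bcl2l1 at chr2:152829691-152829735 on the minus strand in exon 2 of 3. Among the effectors, the Bax stretch is at chr7:45465991-45466035 (minus, exon 3 of 6) and the Bak1 stretch at chr17:27022525-27022569 (minus, exon 4 of 6). Among the BH3-only genes, Bcl2l11 has it at chr2:128147138-128147182 (plus, exon 3 of 4) and Bid at chr6:120897283-120897327 (minus, exon 4 of 6). Bad has it at chr19:6950780-6950824 (plus, exon 3 of 4) and Bbc3 at chr7:16313761-16313805 (plus, exon 3 of 4). The codon of the small residue is a glycine codon in 7 of these genes, a serine codon in Bad and an alanine codon in Bbc3. The counts are per gene and do not tell transcripts with and without this segment apart.

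Of the 10 members, Mcl1 was the 1 that passed the test between NA and WT MPPs, and it was higher in NA. By limma over 11451 genes, 1 of the 9 tested members had an adjusted p below 0.05 and was higher, where 10.1% of all tested genes were. Of the members, 0 were lower, where 7.87% of all tested genes were, and 0 were lower at an unadjusted p below 0.05 or by the exact permutation test. Mcl1 values were higher in every NA library than in any WT library, which held for 11.5% of all tested genes. No member was lower in every NA library than in any WT library, which held for 10.5%. The median log2 fold change was -0.08 over the 9 members and -0.01 over all genes. Without NA4 and WT4 Mcl1 was still the 1 member called higher, where 3.31% of genes were, and 0 members were called lower, where 1.27% were. The other 8 tested members then had a limma adjusted p of 0.321 to 0.941. Bax and Bbc3 were at log2 fold changes of -0.93 and -1.07, Bcl2l1, Bid and Bad at -0.18 each, and Bcl2, Bcl2l11 and Pmaip1 at 0.12, 0.15 and 0.18.

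**Figure D1:**
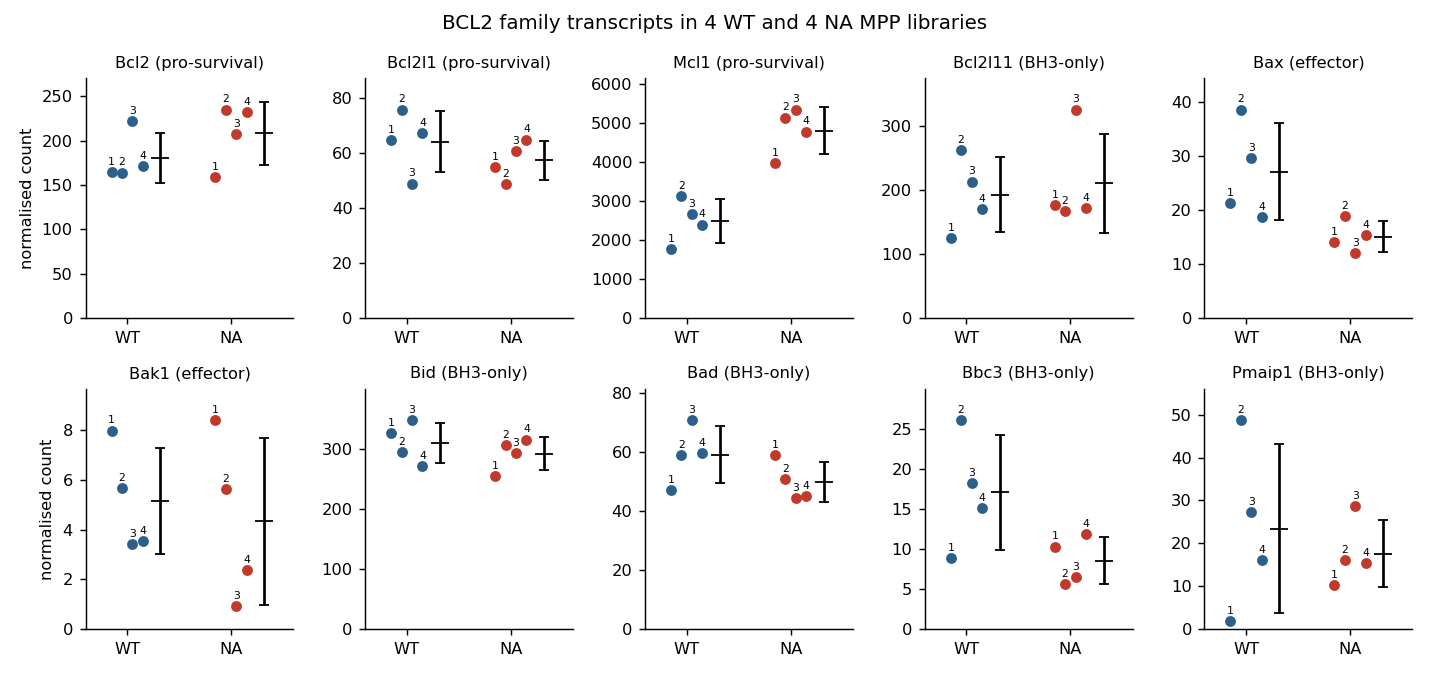
Normalised counts of the 10 members in each library, with WT MPPs in blue and NA MPPs in red on axes that start at 0. Points are libraries with their number, and bars give the mean and SD of 4 libraries. The groups are apart for Mcl1 and share a range for the other 9 genes.

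Mcl1 (ENSMUSG00000038612, chr3:95658788-95663176 in GRCm38) encodes the pro-survival protein with the fastest turnover of the family. It was at 3962, 5133, 5333 and 4772 normalised counts in NA1 to NA4. In WT1 to WT4 it was at 1774, 3119, 2662 and 2394. The lowest NA library, NA1, lay above the highest WT library, WT2, and the WT libraries differed more among themselves, in proportion, than the NA libraries. The means were 4799.9 ± 605 in NA and 2487 ± 562 in WT (SD, n = 4 each), a 1.93-fold ratio. The log2 fold change on the log2(normalised count + 1) scale was 0.97 with a standard error of 0.14 and a 95% interval of 0.67 to 1.27 (limma adjusted p = 0.00043). The exact two-sided permutation test gave p = 0.0286, the smallest that 4 against 4 libraries allow. Among the shallow libraries NA4 lay above both WT2 and WT3, and among the deep ones NA1 to NA3 lay above both WT1 and WT4. Without NA4 and WT4 the log2 fold change was 0.96 (limma adjusted p = 0.0066).

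Bcl2, which encodes the founding pro-survival protein, overlapped between the groups. It was at 159, 235, 208 and 233 normalised counts in NA1 to NA4 and at 164, 164, 222 and 171 in WT1 to WT4. NA2 and NA4 lay above every WT library, while NA1 lay below all of them and WT3 lay in the NA range. The log2 fold change was 0.20 with a 95% interval of -0.14 to 0.55 (limma adjusted p = 0.412, exact permutation p = 0.314). Bcl2l1, which encodes BCL-XL, the pro-survival protein known for its role in red cell precursors and platelets, was at 55.1, 48.9, 60.9 and 65.0 in NA1 to NA4. Its WT values were 64.8, 75.9, 49.0 and 67.5, and the ranges lay across each other. Its log2 fold change was -0.15 with an interval of -0.63 to 0.33 (limma adjusted p = 0.678, exact permutation p = 0.40). For both genes the intervals hold changes in either direction, and neither reaches the log2 change of Mcl1.

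Bax and Bak1 encode the effectors that form the pores in the outer mitochondrial membrane. Bax was at 14.0, 18.8, 12.0 and 15.4 normalised counts in NA1 to NA4 and at 21.3, 38.5, 29.6 and 18.6 in WT1 to WT4. NA1, NA3 and NA4 lay below every WT library, and NA2 lay just above WT4. The means were 15.04 ± 2.86 and 27.0 ± 8.97 (SD, n = 4 each), and the log2 fold change was -0.77 with an interval of -1.55 to 0.02. This did not pass (limma adjusted p = 0.164, exact permutation p = 0.0571), and it rests on 13 to 34 estimated reads per library. Bak1 was at 8.4, 5.64, 0.923 and 2.36 in NA1 to NA4 and at 7.99, 5.66, 3.42 and 3.55 in WT1 to WT4. With 1 to 9 estimated reads per library it did not enter the test, and a difference was not detectable at this depth.

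Among the BH3-only genes, Bid and Bcl2l11 were the most abundant. Bid, whose protein is cut by caspases to link death receptors to mitochondria, was at 254, 306, 293 and 315 normalised counts in NA1 to NA4 and at 327, 294, 347 and 271 in WT1 to WT4. The groups shared most of their range, and the log2 fold change was -0.08 with an interval of -0.35 to 0.18 (limma adjusted p = 0.676). Bid thus has the narrowest interval of the 9 members. Bcl2l11, whose protein BIM removes lymphoid and other blood cells that lose cytokine signals, was at 176, 167, 325 and 171 in NA1 to NA4. In WT1 to WT4 it was at 125, 262, 213 and 170. NA3 stood above the other 3 NA libraries, which lay within 10 normalised counts of each other and inside the WT range. The log2 fold change was 0.12 with an interval of -0.40 to 0.63 (limma adjusted p = 0.774), and it was -0.11 without NA3.

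Bad, Bbc3 and Pmaip1 were lower in abundance. Bad, whose protein is inactivated by phosphorylation under growth factor signals, was at 58.8, 50.8, 44.3 and 44.9 in NA1 to NA4 and at 47.1, 58.9, 70.6 and 59.5 in WT1 to WT4. NA3 and NA4 lay below every WT library and NA1 lay inside the WT range (log2 fold change -0.24, interval -0.73 to 0.25, limma adjusted p = 0.507). Bbc3, which encodes PUMA, a p53 target, was at 10.3, 5.64, 6.46 and 11.8 in NA1 to NA4. Its WT values were 8.88, 26.05, 18.2 and 15.1, so that WT1 lay among the NA libraries and the other 3 WT libraries lay above them all. The log2 fold change of Bbc3 was -0.88 with an interval of -1.91 to 0.14 (limma adjusted p = 0.219, exact permutation p = 0.0857). Pmaip1, which encodes NOXA, a BH3-only protein that binds MCL1 with preference, was at 10.3, 15.98, 28.6 and 15.4 in NA1 to NA4 and at 1.78, 48.7, 27.3 and 15.98 in WT1 to WT4. WT1 and WT2 were its lowest and highest library, and all NA libraries lay between them. Its direction depends on the scale. The mean was lower in NA, at 17.6 ± 7.81 against 23.4 ± 19.8 (SD, n = 4 each), while the difference of mean logs was 0.12, with WT1 at 2 estimated reads. The interval of -1.40 to 1.64 (limma adjusted p = 0.928) is wide enough to hold a change larger than that of Mcl1 in either direction.

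**Figure D2:**
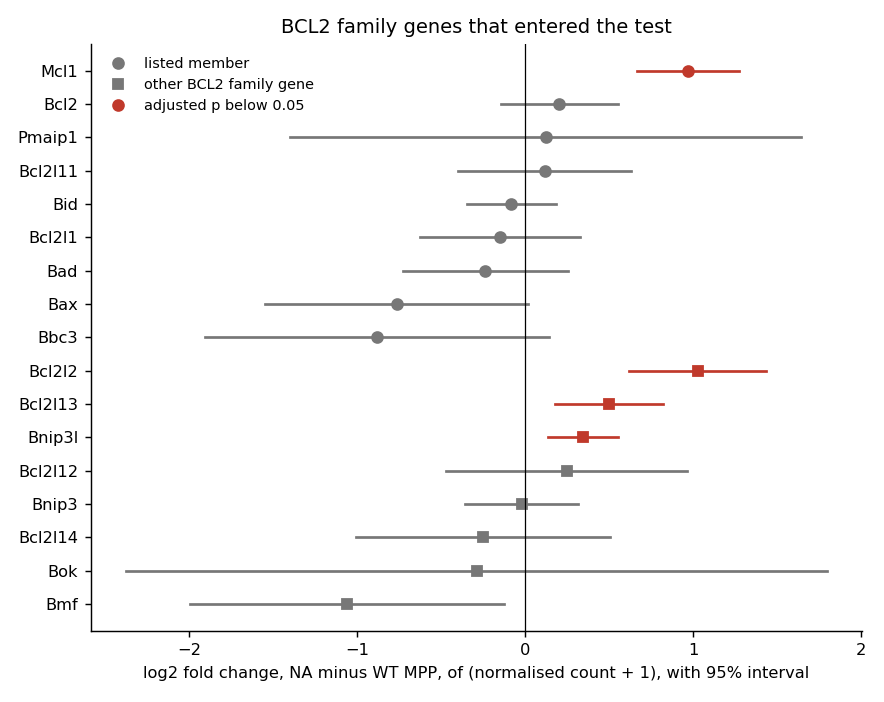
Log2 fold change, NA minus WT MPP, of log2(normalised count + 1) for the 9 members (circles) and the 8 other BCL2 family genes (squares) that entered the test. Lines are 95% limma intervals and red marks an adjusted p below 0.05. Mcl1 is the 1 member whose interval lies above 0, at 0.67 to 1.27, and the intervals of Bbc3 and Pmaip1 are the widest of the members.

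Levels of different genes were compared per kb of mean transcript length. Mcl1 had the highest level in both groups, at 2245 ± 283 normalised counts per kb in NA and 1163 ± 263 in WT (SD, n = 4 each). Bid followed at 214 ± 19.9 and 227 ± 24.9, Bcl2l11 came next at 74.8 ± 27.3 and 68.6 ± 20.8, and Bad was at 51.3 ± 6.95 and 60.9 ± 9.92. In WT, Bcl2l1 at 41.8 ± 7.32, Bax at 40.5 ± 13.5 and Bcl2 at 36.0 ± 5.56 could not be ordered beyond their spread, nor Bad against Bcl2l11. In NA, Bcl2 at 41.6 ± 7.07 and Bcl2l1 at 37.4 ± 4.56 lay within each other's spread, and Bax was below both at 22.6 ± 4.29. Bbc3 (9.48 ± 3.29 in NA, 18.9 ± 7.92 in WT) and Pmaip1 (8.40 ± 3.73 and 11.2 ± 9.48) were within each other's spread in both groups. Bak1 was the lowest, at 2.63 ± 2.04 and 3.13 ± 1.31. With the longest transcript in place of the mean length, Mcl1 and Bid stayed first and second and Bak1 last in both groups.

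By role, the summed level per kb of the 3 pro-survival genes was 1920 to 2575 in the NA libraries and 905 to 1541 in the WT libraries. Mcl1 made up 96.2% to 96.9% of that sum in NA and 91.7% to 94.7% in WT. The 5 BH3-only genes summed to 326 to 397 per kb in NA and 344 to 437 in WT, with overlap, and the 2 effectors to 18.6 to 31.6 and 30.1 to 61.2. The ratio of the pro-survival to the BH3-only sum was 5.89 to 7.07 in NA and 2.63 to 3.65 in WT. Without Mcl1 in the sum the ratio was 0.204 to 0.247 in NA and 0.174 to 0.226 in WT. Among these 3 listed pro-survival genes the gap between the groups thus rests on Mcl1. Bcl2l2, a pro-survival gene outside the member list, is not in these sums. It was at 96.1 to 126 normalised counts in NA and 49.1 to 56.6 in WT. These sums are descriptions of transcript levels with no test, and in bulk libraries fewer cells of a type and less RNA per cell cannot be told apart.

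**Figure D3:**
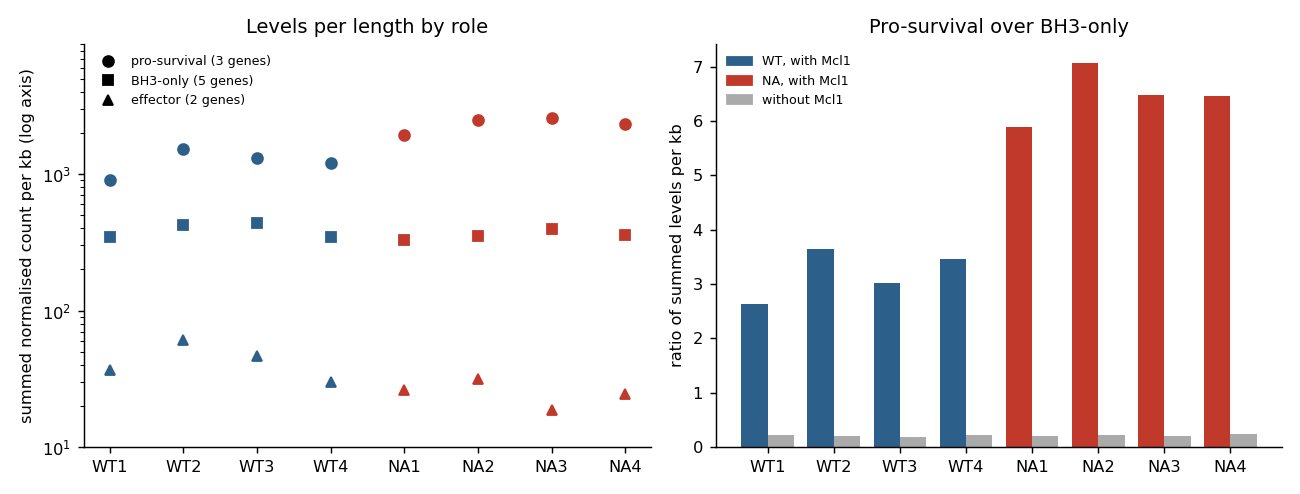
Left, summed normalised count per kb in each library on a log axis for the 3 pro-survival, 5 BH3-only and 2 effector genes, with WT in blue and NA in red. Right, the ratio of the pro-survival to the BH3-only sum as bars from 0, coloured with Mcl1 in the sum and grey without it. With Mcl1 the NA bars stand at 5.89 to 7.07 and the WT bars at 2.63 to 3.65, and the grey bars stay below 0.25.

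Early response genes, which cells switch on within minutes of a stimulus, were examined beside Mcl1. A list of 10 of them (Fos, Fosb, Jun, Junb, Egr1, Ier2, Dusp1, Atf3, Nr4a1 and Zfp36) was chosen after their values had been seen. By limma 8 of the 10 rose in NA MPPs at an adjusted p below 0.05, where 10.1% of all tested genes did, and the fold changes of all 10 were above 0. Without NA4 and WT4, 6 rose, where 3.31% of all tested genes did. Junb (limma adjusted p = 0.0476, then 0.155) and Zfp36 (0.0222, then 0.116) were then no longer called. Their summed normalised count was 40029 to 46094 in the NA libraries and 5228 to 15852 in the WT libraries. Within WT MPPs the libraries had the same order for this sum, for Mcl1 and for Pmaip1: WT1, WT4, WT3, WT2 from low to high. The order of the sum did not hold for each gene of the list. Fos, Jun, Dusp1, Atf3 and Zfp36 were higher in WT3 than in WT2. Fosb, Junb, Egr1, Ier2 and Nr4a1 were higher in WT2, with Nr4a1, which was not called, at 2411 in WT2 and 1226 in WT3. Within NA MPPs the sum ran NA4, NA1, NA2, NA3, and Mcl1 ran NA1, NA4, NA2, NA3. Across groups Pmaip1 did not follow the sum, since the NA libraries held 10.3 to 28.6 normalised counts and WT2 held 48.7. All 3 measures share their libraries, and the part of the early response in the Mcl1 difference was not tested.

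**Figure D4:**
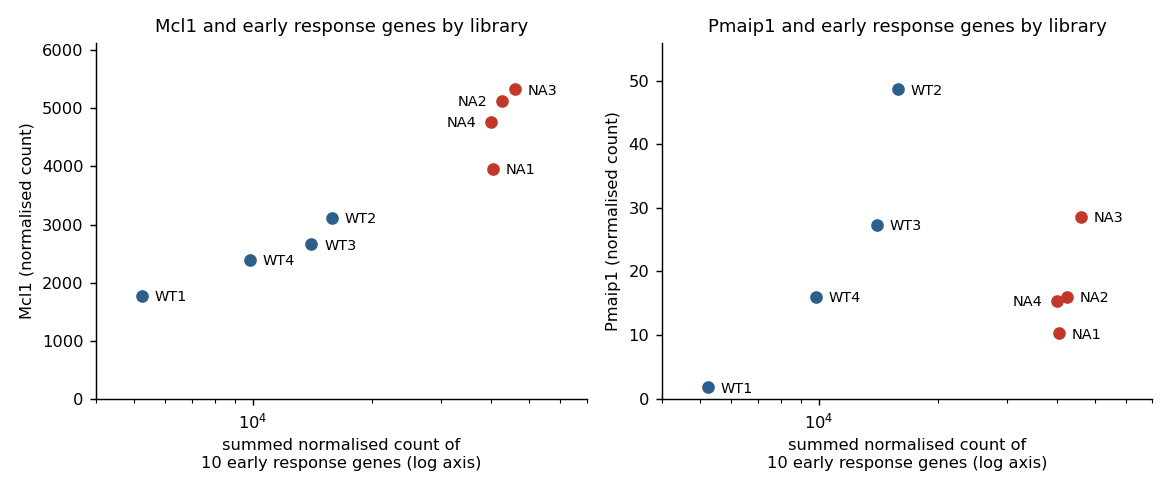
Normalised count of Mcl1 (left) and Pmaip1 (right) against the summed normalised count of 10 early response genes on a log axis, 1 point per library with WT in blue and NA in red. The WT libraries rise in the same order on both axes in both panels, and the NA libraries lie at sums of 40029 to 46094.

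The Mcl1 promoter was read for short motifs of factors that belong to this context. RefSeq on GRCm38.p6 places it at chr3:95658471-95658770 on the plus strand, from 250 bases before to 50 bases after the RefSeq start. The whole window lies before the GENCODE gene start given above, 95658788. Of the bases in the window 65.7% are G or C. The capitals mark CCGGAAG, an ETS motif, 63 bases before the RefSeq start.
Mcl1 promoter: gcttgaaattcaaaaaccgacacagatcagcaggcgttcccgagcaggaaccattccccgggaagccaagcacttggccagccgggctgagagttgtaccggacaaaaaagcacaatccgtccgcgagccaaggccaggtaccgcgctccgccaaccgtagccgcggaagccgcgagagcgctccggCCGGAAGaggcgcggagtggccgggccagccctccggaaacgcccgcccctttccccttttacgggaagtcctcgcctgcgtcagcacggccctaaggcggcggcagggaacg
Both strands were searched, and 15 promoters of 9 members matched the table by symbol. Promoters of Pmaip1 were not searched. The ETS motif was in promoters of Mcl1, Bcl2l1 and Bcl2l11, and in 8.86% of all 32851 promoters. The EGR motif GCGNGGGCG, in 5.55% of promoters, and the FOXO motif TGTTTAC, in 3.65%, were found for Bcl2l11 and Bbc3 among the members. The AP-1 motif TGANTCA (7.81% of promoters), the CRE motif TGACGTCA (1.79%), the HOX-MEIS motif TGATTTAT (0.98%) and the STAT motif TTCNNNGAA (8.3%) were in 0 of the 15 windows. No overlap between the motifs was counted, and a match is a description of letters in the window.

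The other genes of the pathway were taken from 6 lists of 82 names, 80 of which were in the table and 74 of which were tested. By limma 16 of these genes were higher and 5 lower, where 10.1% and 7.87% of all tested genes were. Without NA4 and WT4 the counts were 5 higher and 1 lower, where 3.31% and 1.27% of all tested genes were. The called genes included genes with pro-survival and genes with pro-death roles in both directions.

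**Figure D5:**
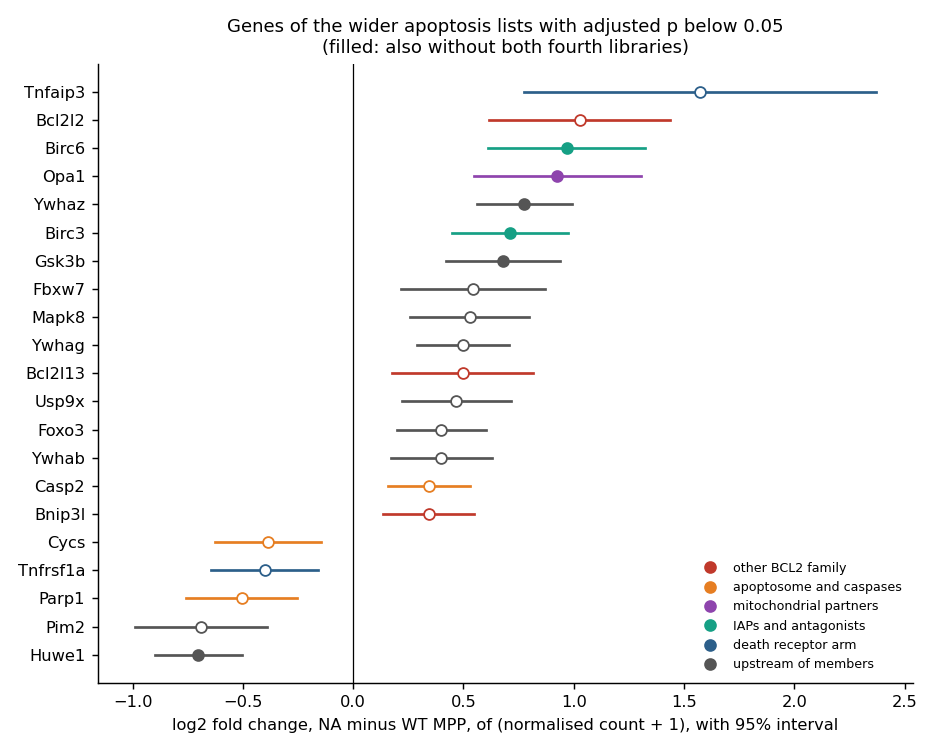
Log2 fold change, NA minus WT MPP, with 95% limma intervals for the 21 genes of the wider lists with an adjusted p below 0.05, coloured by list. Filled points were also called without NA4 and WT4. The 16 higher genes run from Bnip3l at 0.34 to Tnfaip3 at 1.57, and the 5 lower genes from Cycs at -0.39 to Huwe1 at -0.70.

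Among 8 tested genes of the rest of the BCL2 family, 3 were higher and 0 lower, where 10.1% and 7.87% of all tested genes were. Their median log2 fold change was 0.11. Bcl2l2, which encodes the pro-survival protein BCL-W, was at 96.1, 101, 126 and 114 normalised counts in NA1 to NA4 and at 49.1, 56.6, 56.6 and 50.01 in WT1 to WT4. All NA libraries lay above all WT libraries (log2 fold change 1.03, limma adjusted p = 0.0025), and without NA4 and WT4 the adjusted p was 0.0609. Bcl2l13 and Bnip3l, which encode mitophagy receptors, were higher by 0.50 and 0.34 (limma adjusted p = 0.0346 and 0.0248), and neither passed without NA4 and WT4 (0.0791 and 0.144). Bmf, a BH3-only gene named after its values were seen, had a log2 fold change of -1.06 that did not pass (limma adjusted p = 0.106, passing in 1 of 20 alternatives), with NA3 at 69.2 above every WT library. Bcl2l10, Bik and Hrk were listed at 0 in all 8 libraries. Bcl2a1b, at most 8.88 normalised counts, has near-identical copies that could split its reads.

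Of 21 genes known to act on MCL1 or on BH3-only proteins, 8 were higher and 2 lower, with a median of 0.40. Of all tested genes 10.1% were higher and 7.87% lower. Leaving out NA4 and WT4 gave 2 higher and 1 lower, where 3.31% and 1.27% of all tested genes were. This list, like the others, was chosen with earlier results of these data known. Huwe1, which encodes a ubiquitin ligase of MCL1, was at 432, 411, 412 and 420 normalised counts in NA1 to NA4 and at 664, 745, 633 and 692 in WT1 to WT4. It fell by 0.70 on the log2 scale (limma adjusted p = 0.000191), and by 0.70 without NA4 and WT4 (0.00845). Usp9x, which encodes a deubiquitinase of MCL1, was higher by 0.47 (limma adjusted p = 0.0128), and without NA4 and WT4 it did not pass (0.0973). Both genes lie on the X chromosome, as does Pim2, a kinase gene for BAD, which fell by 0.69 on the log2 scale (limma adjusted p = 0.00417, 0.0731 without NA4 and WT4). The 10 members lie on autosomes. For them, Mcl1 included, as for these X-linked genes, the part of sex cannot be told apart from genotype.

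The kinase, 14-3-3 and transcription factor genes of this list that were called were also higher in NA MPPs, Pim2 aside. Gsk3b, whose kinase marks MCL1 for degradation, was at 486 ± 58.4 against 302 ± 29.2 normalised counts (SD, n = 4 each), higher by 0.68 (limma adjusted p = 0.00172), and it passed without NA4 and WT4 (0.0395). Fbxw7, which encodes a receptor that brings MCL1 to a ubiquitin ligase, was higher by 0.54 (limma adjusted p = 0.0252), and did not pass without them (0.139). Ywhaz, one of the 14-3-3 genes whose proteins hold phosphorylated BAD, was at 2410 ± 274 against 1409 ± 166 (SD, n = 4 each), higher by 0.78 (limma adjusted p = 0.00017, 0.00354 without NA4 and WT4). Its relatives Ywhag and Ywhab were higher by 0.50 and 0.40. The 14-3-3 genes Ywhaq and Ywhae of the same list lay in the other direction, at -0.22 and -0.13, and were not called (limma adjusted p = 0.137 and 0.368). Foxo3, a factor that activates Bcl2l11 and Bbc3, was higher by 0.40 (limma adjusted p = 0.00972), while both of those genes overlapped between the groups. Mapk8, the JNK1 kinase gene, was higher by 0.53 (limma adjusted p = 0.0113). Without NA4 and WT4 none of Ywhag, Ywhab, Foxo3 and Mapk8 passed (limma adjusted p from 0.0635 to 0.148).

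Downstream of the mitochondria, calls went both ways. The shares over all tested genes were 10.1% higher and 7.87% lower, and 3.31% and 1.27% without NA4 and WT4. Of 12 tested apoptosome and caspase genes, Casp2 was higher by 0.34, and Cycs (cytochrome c) and Parp1, a caspase substrate that acts in DNA repair, fell by 0.39 and by 0.51 on the log2 scale (limma adjusted p = 0.0139, 0.0292 and 0.00957). None of these 3 passed without NA4 and WT4. Of 8 inhibitor of apoptosis genes and their antagonists, Birc3 and Birc6 were higher by 0.71 and 0.97 (limma adjusted p = 0.00142 and 0.00141) and passed without NA4 and WT4 (0.0402 and 0.0268). Birc2 of the same list lay in the other direction, at -0.26, and was not called (limma adjusted p = 0.0788). Of 15 mitochondrial partners, Opa1, which shapes the inner membrane, was higher by 0.93 (limma adjusted p = 0.00287, 0.0301 without NA4 and WT4). In the death receptor arm of 10 genes, Tnfaip3, which encodes A20 and restrains NF-kB, was higher by 1.57 (limma adjusted p = 0.0106). The receptor gene Tnfrsf1a fell by 0.40 on the log2 scale (limma adjusted p = 0.0256), and neither passed without NA4 and WT4 (0.0681 and 0.146).

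Lineage marker genes were examined beside these genes, since blood cell types differ in their BCL2 family transcripts. Their levels do not tell admixed mature cells from progenitors that express such genes. Of all tested genes 10.1% were called higher and 7.87% lower, and 3.31% and 1.27% without NA4 and WT4. The summed neutrophil list, most of it Prtn3, was 1390 to 1709 normalised counts in NA and 1754 to 2638 in WT, with 2 of 4 tested genes lower, and 0 without NA4 and WT4. The erythroid sum, led by Hbb-bt, was 34.3 to 64.9 in NA and 147 to 296 in WT, with 1 of 1 tested gene lower, also without NA4 and WT4. The monocyte and macrophage sum was 18.5 to 70.9 in NA and 88.8 to 107 in WT, with 0 of 2 tested genes called. The B cell sum (101 to 239 in NA, 182 to 269 in WT) and the megakaryocyte sum (206 to 288 and 216 to 290) overlapped. The T and NK cell sum was 146 to 161 in NA and 120 to 145 in WT, and the mast cell and basophil sum 17.9 to 26.1 and 1.14 to 19.5, with no tested gene called in these 4 lists. Among 6 sort marker genes, Ly6a and Cd48 fell by 0.28 and by 1.58 on the log2 scale (limma adjusted p = 0.0257 and 0.00711), and neither passed without NA4 and WT4 (0.163 and 0.0675). The part of these levels in the Mcl1 difference was not tested.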

How the data were processed

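Amplified cDNA of sorted MPPs was sequenced by the authors, and genes were quantified with RSEM. The submitters' processing notes name mm10, while the annotation is not given in the sources used here. The deposited values are normalised counts, a signal that the authors had divided by a size factor per library. In each library 98.5% to 99.1% of low values were whole multiples (tolerance 0.1) of a step of 0.888 to 1.18. Dividing by the step gave estimated reads, which cover counting error only, as amplified reads are not independent molecules. Symbols for 32916 of 37980 rows came from GENCODE M21. Genes that reached 10 normalised counts in 4 or more of the 8 libraries were tested with limma 3.58.1 (R 4.3.3) on log2(normalised count + 1) with a variance trend. Adjusted p-values are Benjamini-Hochberg values with a threshold of 0.05, and fold changes of low genes are understated on this scale. Single members were also tested by exact permutation over 70 assignments. The design had foreseen count models on recovered reads, and these were not run. Members, lists and tests were chosen with earlier results of these data known. By rule all members were named, and of the wider lists the genes with an adjusted p below 0.05. Early response genes, Bmf, Birc2, Ywhaq, Ywhae and Trp53 were added after their values were seen. Alternatives covered scaling, pseudocount, filter, variance model, depth class, GC content, replicate block and left-out libraries. The test was checked on simulated data.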

Additional observations from a re-analysis of the deposited data

Results flagged for a closer look

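Of 26 groups of 4 values, for the 10 members and the summed levels of their 3 roles, 2 held a library whose gap to its nearest neighbour was above the 95% limit of Dixon's test, and chance gives about 1.3. Bcl2 was at 222.01 normalised counts in WT3, against 164.21 to 171.35 in the other WT libraries. Bcl2l11 was at 325.0 normalised counts in NA3, against 167.32 to 176.43 in the other NA libraries. Neither gene had a limma adjusted p below 0.05, with all libraries or with any 1 left out.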

How the results depend on the processing

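The call of Mcl1 held in 21 of 21 alternatives, with a log2 fold change of 0.82 to 1.09 and a limma adjusted p of 4.28e-05 to 0.0155, and no other member was called in any of them. A minimum mean of 50 left Bax, Bbc3 and Pmaip1 out. Among the member values under alternatives, 180 kept their direction and call, and 6 changed sign without passing. Pmaip1 was at -0.043 with a pseudocount of 5 and -0.052 with the GC trend removed. With 1 library left out, Pmaip1 ran from -0.72 without WT1 to 0.66 and was at -0.13 without NA3, and Bcl2l11 ran from -0.11 without NA3 to 0.28 and was at -0.07 without WT1. The cause of these changes was not tested. Of the 21 called genes of the wider lists, 6 (Birc3, Birc6, Gsk3b, Huwe1, Opa1 and Ywhaz) were called in all alternatives. The wider counts of 16 higher and 5 lower became 5 and 1 without NA4 and WT4, and 12 and 3 without a variance trend. Leaving out 1 library gave 10 to 17 higher, lowest without NA4, and 3 to 6 lower. For all genes, 1152 higher and 901 lower became 379 and 145 without NA4 and WT4, 825 and 595 without a variance trend, and 675 to 1186 and 450 to 1001 when 1 library was left out, with the lowest counts without NA4 and 478 lower without WT4. Total-count scaling gave 927 higher and 1313 lower, 41.4% higher against 56.1%, and moved the median of all genes to -0.08. Correlations of deviations from the group mean were 0.15, 0.0005, 0.0034 and 0.237 for libraries of the same number, in order. Other pairs ran from -0.142 (NA3 and WT1) to 0.179 (NA3 and WT2), so pairing by replicate number was not settled. A replicate block gave 1145 higher and 859 lower genes with Mcl1 still called. TMM scaling, edgeR and DESeq2 were not run, so no count model stands beside limma. Depth limits Bak1, Bax, Bbc3 and Pmaip1, at under 50 estimated reads in each library.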

Other observations

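Trp53, the gene of the p53 factor that activates Bbc3, Pmaip1 and Bax, is reported here after its values were seen. It was at 534, 359, 412 and 390 normalised counts in NA1 to NA4 and at 70.1, 271 and 110 in WT1, WT2 and WT4, and it was listed at 0 in WT3. All NA libraries lay above all WT libraries, and the limma adjusted p was 0.0556, with 5 of 21 alternatives passing at 0.05. Bax, Bbc3 and Pmaip1 did not pass in any alternative.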
